A study of Mus musculus with 12 samples.

Results

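Mbp, Prx, Mag, Cnp and Pmp22 are 5 genes that Schwann cells use to build and keep the myelin of peripheral nerve. They were taken by symbol as 5 of the 18505 genes of the deposited expression table of mouse back skin, and they were chosen by their FPKM values, which were already known to be lower in both IMQ-treated groups than in control, so their own differences between groups are described here without a test. All 5 passed the filter on low values, a mean of at least 0.1 FPKM over the 12 samples. FPKM counts sequenced fragments per kilobase of a transcript, scaled by the depth of the library. Levels of genes and samples can be set side by side only roughly, since FPKM values do not add up to the same total in every sample.

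The 12 samples were back skin of wild-type BALB/c mice, taken on day 10, with 4 samples in each of 3 groups. The study describes male mice of 5 to 6 weeks. The control group received petroleum jelly, the IMQ + NS group received imiquimod (IMQ) cream followed by normal saline (NS), and the IMQ + BZLF group received IMQ cream followed by Banzhilian formula (BZLF), a mixture of Chinese medicinal materials. The study describes a cover of gauze and polyurethane film in both IMQ-treated groups and names none for control. The cream and the cover cannot be told apart in a comparison with control. IMQ activates toll-like receptors and, put on the skin of mice, gives a psoriasis-like lesion that is short-lived and differs from human disease. The BZLF dose of the sequenced samples is not given in the sources used here. The labels do not say whether each sample came from a separate mouse, so p-values measure the spread between these samples, which may be in part technical.

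Myelin is a membrane of the Schwann cell wound many times around an axon. In compact myelin, myelin basic protein (Mbp) brings the cytoplasmic faces of the membrane together, and Pmp22 is a small 4-span membrane protein whose gene dosage is critical for human inherited neuropathy. Myelin-associated glycoprotein (Mag) sits in the membrane next to the axon, Cnp is a phosphodiesterase of the channels of cytoplasm that stay open in myelin, and periaxin (Prx) ties the outer Schwann cell membrane to dystroglycan through Drp2. The program is switched on by the transcription factors Sox10 and Egr2, with Tead factors acting beside them. Skin holds many small nerve bundles. Some of these genes are not confined to myelin: Pmp22 was first found as a growth arrest gene of fibroblasts, and the Mbp locus also makes golli transcripts in immune cells, which a value for the whole gene cannot separate.

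The 250 bases before the most upstream RefSeq start (GRCm38.p6) are shown for the 4 genes with an entry, since the groups differed in these genes together and they share known regulators. Capitals mark matches to the core of a SOX site (ACAAAG or ACAATG), an EGR site (GCGNGGGCG) or a TEAD site (CATTCC), searched on both strands. The regions are chr7:27499074-27499323 (plus strand) for Prx, chr7:30914923-30915172 (minus strand) for Mag, chr11:100574689-100574938 (plus strand) for Cnp and chr11:63128732-63128981 (plus strand) for Pmp22.
Prx: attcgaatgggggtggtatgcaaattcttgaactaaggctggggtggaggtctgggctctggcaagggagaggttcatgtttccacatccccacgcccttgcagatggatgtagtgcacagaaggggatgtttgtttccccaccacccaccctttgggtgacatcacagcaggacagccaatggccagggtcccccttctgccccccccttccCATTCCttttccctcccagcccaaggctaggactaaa
Mag: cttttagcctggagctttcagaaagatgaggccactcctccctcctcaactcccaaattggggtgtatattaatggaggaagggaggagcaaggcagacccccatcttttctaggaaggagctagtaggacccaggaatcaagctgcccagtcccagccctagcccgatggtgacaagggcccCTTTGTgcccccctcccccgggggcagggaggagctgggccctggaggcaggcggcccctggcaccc
Cnp: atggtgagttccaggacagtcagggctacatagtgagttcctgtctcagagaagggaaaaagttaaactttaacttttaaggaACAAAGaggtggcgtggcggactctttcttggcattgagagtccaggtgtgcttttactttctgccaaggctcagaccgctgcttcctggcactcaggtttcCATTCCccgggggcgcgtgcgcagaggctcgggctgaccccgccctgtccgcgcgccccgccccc
Pmp22: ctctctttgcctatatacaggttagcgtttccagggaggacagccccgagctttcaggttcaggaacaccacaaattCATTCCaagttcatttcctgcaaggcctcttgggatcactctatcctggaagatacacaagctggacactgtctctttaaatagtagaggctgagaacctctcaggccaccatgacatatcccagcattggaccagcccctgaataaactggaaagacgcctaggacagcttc
Prx, Cnp and Pmp22 each held 1 TEAD core. Cnp held 1 SOX core, and Mag held 1 on the opposite strand, which reads CTTTGT on the strand printed. The EGR core and ACAATG were in none of these 4 windows. Such short words are common, and of 32851 RefSeq windows of the same length 12.6% held CATTCC, 16.5% ACAAAG, 10.7% ACAATG and 4.7% GCGNGGGCG. A match is a description of the letters and no evidence of binding. Mag has 3 and Pmp22 4 starts in the RefSeq table, of which 1 is shown.

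The genes lie on 3 chromosomes of the mouse genome. On build GRCm38, the same assembly as the mm10 of the submitters' processing notes, the GENCODE annotation places Mbp at chr18:82475146-82585637, Prx at chr7:27499324-27520214, Mag at chr7:30899176-30914873, Cnp at chr11:100574904-100591729 and Pmp22 at chr11:63128982-63159547. Mag is on the minus strand and the others are on the plus strand. Cnp overlaps Dnajc7, Prx overlaps Gm15541 and Mbp overlaps the pseudogene Rpl21-ps8, each on the opposite strand. Whether the counting used strand is not given in the sources used here, so reads in those overlaps cannot be assigned with certainty.

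The summed FPKM of a sample ranged from 444660 to 461199 in control, from 492551 to 506622 in IMQ + NS and from 476676 to 493935 in IMQ + BZLF samples, so that the controls lay below both IMQ-treated groups, and 16649 to 16941 genes were above 0. The study describes similar amounts of clean sequence for all samples, but the reads behind each gene's value were not used here, so the precision of each level rests on its 4 samples. Control replicate 2 stood apart from its group, with a mean correlation to the other controls of 0.953 on the log2 scale across genes, against 0.975 to 0.978 for the other controls and 0.985 to 0.988 for the IMQ-treated samples. Its melanocyte markers summed to 267 FPKM, against 48.5 to 69.7 in the other controls. The differences of the 5 genes from control and the counts of other nerve genes are therefore also given without it. IMQ + BZLF replicate 1 did not stand apart by that correlation (0.985). It was the lowest of its group in every fibroblast marker listed, such as Dcn (373 FPKM, against 592 to 689 FPKM). Its melanocyte markers were the highest of that group, such as Dct (229.7 FPKM, against 101 to 115 FPKM). The part of this in the levels of the 5 genes was not tested.

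Mbp, which encodes myelin basic protein, had the widest difference from control among the 5 genes. Its level was 24.1, 17.2, 28.0 and 19.0 FPKM in control replicates 1 to 4, 5.66, 5.38, 5.0 and 4.35 FPKM in the IMQ + NS samples, and 4.01, 6.25, 6.17 and 9.50 FPKM in the IMQ + BZLF samples. Every IMQ-treated sample was below every control, and the ranges of the 2 IMQ-treated groups overlapped. The means were 22.1 ± 4.90 (SD, n = 4), 5.10 ± 0.569 and 6.48 ± 2.26 FPKM. Mbp in IMQ + NS samples was thus at 23.1% of control, a difference of -2.07 ± 0.18 (SE) on the log2(FPKM + 0.1) scale used throughout, and at 29.4% in IMQ + BZLF samples, a difference of -1.79 ± 0.30.

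Pmp22, the compact myelin protein that other skin cells also make, had the highest level. It stood at 124, 107, 118 and 101 FPKM in the controls, at 44.4, 52.5, 41.9 and 41.7 FPKM after IMQ + NS, and at 44.4, 60.5, 61.2 and 61.8 FPKM after IMQ + BZLF. The controls lay above all 8 IMQ-treated samples. In the IMQ + BZLF group, 3 samples lay close together above every IMQ + NS sample, while replicate 1 lay within the IMQ + NS range. The means were 113 ± 10.4 (SD, n = 4), 45.1 ± 5.05 and 57.0 ± 8.42 FPKM, which put the log2 difference from control at -1.32 ± 0.10 (SE) for IMQ + NS and at -0.99 ± 0.13 for IMQ + BZLF.

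Cnp, the phosphodiesterase of the cytoplasmic channels, had about the level of Mbp in the controls, at 20.8, 16.4, 25.1 and 20.1 FPKM. It was at 8.17, 8.37, 9.41 and 8.28 FPKM in the IMQ + NS samples and at 5.96, 9.75, 8.04 and 9.23 FPKM in the IMQ + BZLF samples. Both IMQ-treated groups were below the controls without overlap and overlapped each other. Means of 20.6 ± 3.55 (SD, n = 4), 8.56 ± 0.575 and 8.25 ± 1.68 FPKM gave log2 differences from control of -1.24 ± 0.13 (SE) and -1.32 ± 0.20.

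Mag, the glycoprotein facing the axon, was the least abundant. Its controls read 0.824, 0.736, 1.23 and 1.16 FPKM, its IMQ + NS samples 0.664, 0.314, 0.452 and 0.396 FPKM, and its IMQ + BZLF samples 0.209, 0.453, 0.432 and 0.558 FPKM. The groups again did not overlap with control, although IMQ + NS replicate 1 came close to the lowest control. The means were 0.986 ± 0.243 (SD, n = 4), 0.457 ± 0.150 and 0.413 ± 0.146 FPKM, with log2 differences from control of -0.97 ± 0.25 (SE) and -1.11 ± 0.29. At this level the constant of 0.1 matters, and with a constant of 1 the differences were -0.44 and -0.49.

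Prx, which encodes periaxin, had the smallest difference from control. It read 6.90, 6.06, 8.64 and 5.94 FPKM in the controls, 3.81, 4.28, 2.90 and 3.90 FPKM after IMQ + NS, and 4.13, 3.89, 4.13 and 5.25 FPKM after IMQ + BZLF. The highest IMQ-treated sample stayed below the lowest control. Mean levels were 6.89 ± 1.25 (SD, n = 4), 3.72 ± 0.583 and 4.35 ± 0.613 FPKM, so that Prx was at 54.1% of control after IMQ + NS and at 63.2% after IMQ + BZLF, log2 differences of -0.87 ± 0.17 (SE) and -0.64 ± 0.15.

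**Figure D1:**
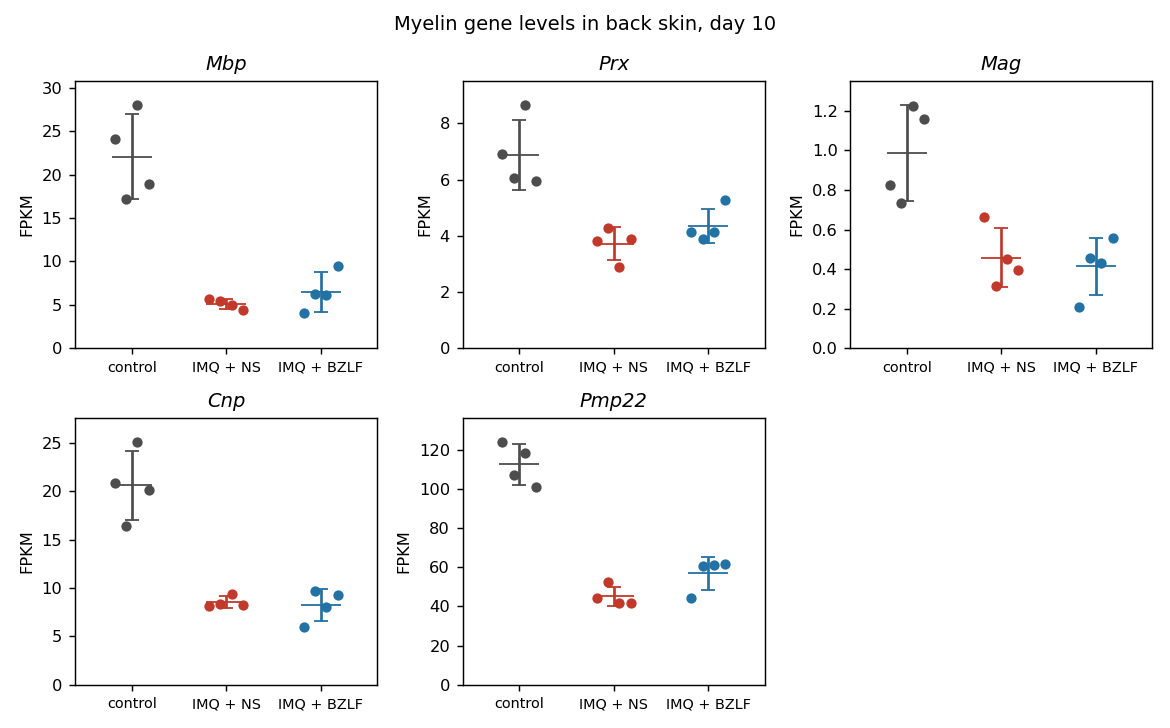
FPKM (vertical axis, linear, from 0) of Mbp, Prx, Mag, Cnp and Pmp22 in the 3 groups. Points are samples, horizontal lines are means and bars are ± SD (n = 4), and in each panel the 4 controls lie above all 8 IMQ-treated samples.

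The order of the 5 levels depended on the group. In the controls it ran Pmp22, Mbp, Cnp, Prx and Mag, with Mbp (17.2 to 28.0 FPKM) and Cnp (16.4 to 25.1 FPKM) overlapping and the other neighbours apart. In the IMQ + NS samples Cnp stood above Mbp in every sample and no neighbours overlapped. In the IMQ + BZLF samples the order was the same as in IMQ + NS, but Cnp overlapped Mbp, and Mbp (4.01 to 9.50 FPKM) overlapped Prx (3.89 to 5.25 FPKM). Over all 12 samples the highest value was 6.98 times the lowest for Mbp, 5.86 times for Mag, 4.21 times for Cnp, 2.98 times for Prx and 2.97 times for Pmp22. The highest value of Mbp, Prx, Mag and Cnp was in control replicate 3, and the lowest of Mbp, Mag and Cnp was in IMQ + BZLF replicate 1. Within groups, Mbp and Cnp varied least after IMQ + NS, with coefficients of variation of 11.2% and 6.71%, and most after IMQ + BZLF, with 34.9% and 20.4%.

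The first question was how lesional skin differs from normal skin. All 5 genes were lower in IMQ + NS without overlap, where 25.7% of the 15288 genes tested were. The absence of overlap only restates how the 5 genes were picked. Their median log2 difference was -1.24, against 0.05 for all genes tested. Without control replicate 2 the differences were -2.18 for Mbp, -1.34 for Pmp22, -1.35 for Cnp, -1.09 for Mag and -0.92 for Prx. In bulk skin, fewer Schwann cells and less RNA of a gene per Schwann cell cannot be told apart.

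Lesions treated with BZLF were compared with those given saline. The ranges of all 5 genes overlapped, while 10.9% of all genes were lower and 4.24% higher without overlap. The log2 differences of IMQ + BZLF from IMQ + NS were 0.28 ± 0.26 (SE) for Mbp, 0.33 ± 0.14 for Pmp22, 0.22 ± 0.15 for Prx, -0.08 ± 0.16 for Cnp and -0.13 ± 0.30 for Mag. The signs for Cnp and Mag turned when single samples were left out, with ranges of -0.16 to 0.07 and -0.27 to 0.09. The difference of Pmp22 ranged from 0.29 to 0.40 when 1 sample other than IMQ + BZLF replicate 1 was left out, and was 0.44 without that sample.

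Against control, all 5 genes were also lower without overlap in the IMQ + BZLF samples, where 28.1% of all genes were. As above, this restates the choice of the genes. This comparison and that of IMQ + NS with control share their 4 control samples. The median log2 difference of the 5 genes was -1.11, against -0.02 for all genes. Without control replicate 2 the differences were -1.90 for Mbp, -1.01 for Pmp22, -1.42 for Cnp, -1.22 for Mag and -0.70 for Prx.

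The 5 genes did not keep their proportions. Relative to Mbp in the same sample, Prx, Cnp and Pmp22 were higher after IMQ + NS than in control, without overlap. The ratio to Mbp was 0.315 ± 0.0269 (SD, n = 4) in control and 0.736 ± 0.138 in IMQ + NS samples for Prx, 0.944 ± 0.0865 and 1.70 ± 0.233 for Cnp, and 5.23 ± 0.821 and 8.89 ± 0.929 for Pmp22. For Mag it was 0.0454 ± 0.0112 and 0.0893 ± 0.0242, with overlapping ranges. After IMQ + BZLF the ratios of Prx (0.719 ± 0.212) and Pmp22 (9.29 ± 1.95) again lay above all controls, while those of Cnp (1.33 ± 0.262) and Mag (0.0634 ± 0.00958) overlapped them. All 4 ratios of the IMQ + BZLF samples overlapped those of the IMQ + NS samples. Mbp was taken as the reference after its values were seen, and these ratios come from the samples in which the genes were picked, so they were not tested.

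**Figure D2:**
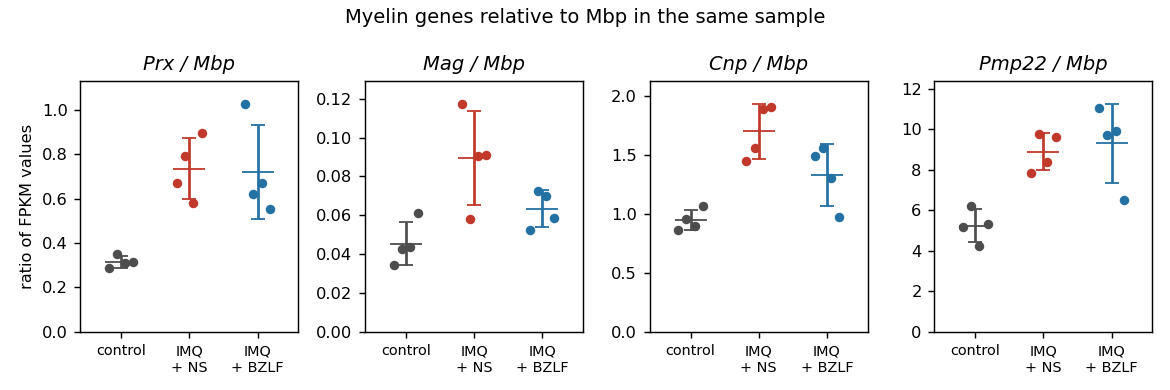
Ratio of the FPKM of Prx, Mag, Cnp and Pmp22 to that of Mbp in the same sample (vertical axis, linear, from 0) in the 3 groups. Points are samples, horizontal lines are means and bars are ± SD (n = 4), and the IMQ + NS samples lie above the controls for Prx, Cnp and Pmp22 and overlap them for Mag.

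Other genes of myelin were lower in the lesions in large part, but not in all cases. These genes were tested, although their list was written with earlier results of these data known. A gene was called if its log2 fold change exceeded 1 in either direction and its adjusted p was below 0.05. The adjusted p came from limma on log2(FPKM + 0.1) with the Benjamini-Hochberg method. Of 17 other myelin genes, 9 were called lower and 1 higher in IMQ + NS against control, beside 11% and 11.4% of all genes. Their median log2 fold change was -1.06. Pmp2, the fatty acid binding protein of myelin, fell from 0.976 ± 0.311 (SD, n = 4) to 0.158 ± 0.112 FPKM (log2 fold change -2.13, SE 0.35, adjusted p = 0.0011 from limma). Drp2, the partner of periaxin, read 2.26, 1.62, 2.73 and 2.06 FPKM in control and 0.790, 0.793, 0.658 and 0.505 FPKM in IMQ + NS samples, a fold change of -1.52 (SE 0.20, adjusted p = 3.1e-04), beside a difference of -0.87 for Prx. With a constant of 1 both fell short of the limit on the fold change, at -0.76 for Pmp2 and -0.90 for Drp2. Gal3st1, which makes the myelin lipid sulfatide, fell by 1.97 and Pllp (plasmolipin) by 1.86 on the log2 scale. Ugt8a, Cldn19, Ncmap and Dusp15 were also called lower, at -1.45, -1.32, -1.08 and -1.06, all with a control mean of 2.02 FPKM or less. At such levels the constant of 0.1 matters, as it did for Pmp2 and Drp2. Dusp15 read 0.904 FPKM in control replicate 3 and 0.253 to 0.324 FPKM in the other controls. Cadm4, an adhesion molecule that Schwann cells use to hold axons and that epithelia also express, rose from 9.61 to 23.5 FPKM (log2 fold change 1.29, SE 0.14, adjusted p = 1.3e-04). Sh3tc2 was also higher without overlap in both IMQ-treated groups, but short of the limit on the fold change. It was at 0.78 (adjusted p = 0.0020 from limma) in IMQ + NS and 0.57 (adjusted p = 0.0171) in IMQ + BZLF against control.

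**Figure D3:**
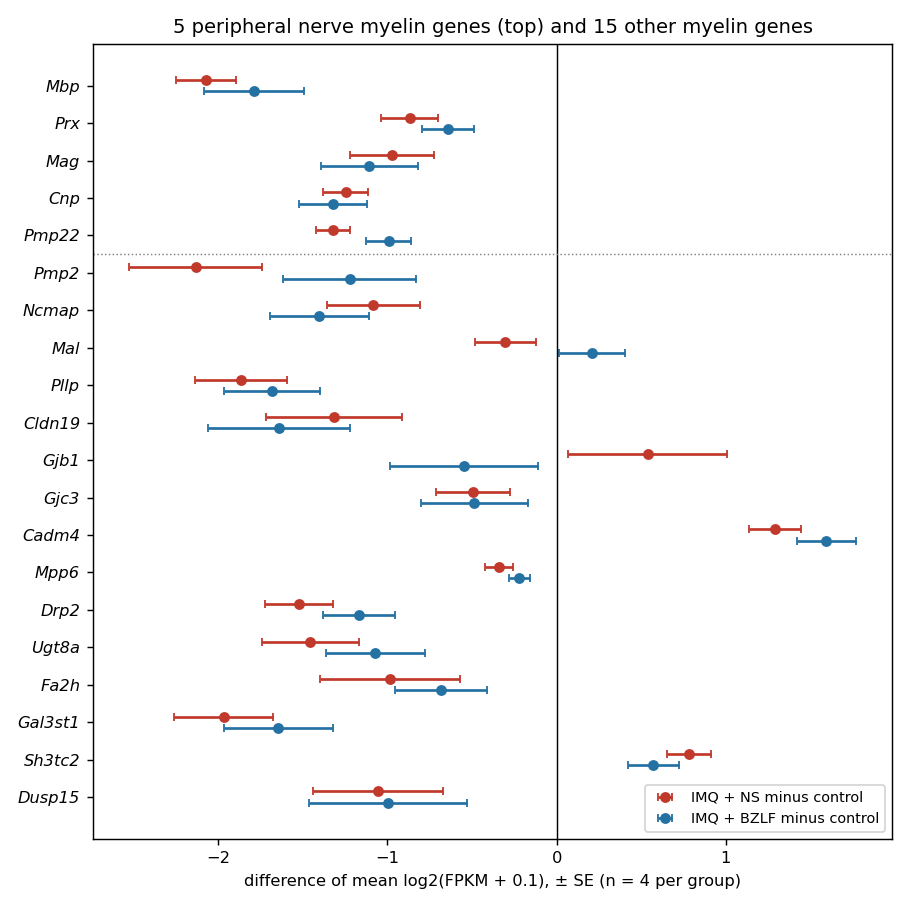
Difference of the mean log2(FPKM + 0.1) from control (horizontal axis) for Mbp, Prx, Mag, Cnp and Pmp22 (above the dotted line) and other myelin genes in the IMQ + NS and IMQ + BZLF groups, with bars of ± SE (n = 4 per group). The 5 genes lie between -2.07 and -0.64, and Cadm4 and Sh3tc2 lie above 0 in both groups.

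In IMQ + BZLF samples against control, 8 of the 17 were called lower and 1, Cadm4, higher, beside 10.1% and 9.65% of all genes. The median of the 17 was -1.0. Drp2 was at -1.17 (SE 0.21, adjusted p = 0.0018 from limma) and Pmp2 at -1.22 (SE 0.35, adjusted p = 0.0176), although both lost their call with a constant of 1 (-0.72 and -0.51), and Pmp2 also without control replicate 3 or IMQ + BZLF replicate 2. In IMQ + BZLF against IMQ + NS samples only Gjb1, which encodes the gap junction protein connexin 32, was called. It fell from 0.494 to 0.174 FPKM (log2 fold change -1.08, SE 0.21, adjusted p = 0.0196 from limma), and at these low levels its call was lost with a constant of 1, in a fit of all 12 samples together and without IMQ + NS replicate 2, IMQ + NS replicate 4 or IMQ + BZLF replicate 3.

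The genes that control myelination moved in both directions or did not pass the test. Sox10, the master factor of the Schwann cell lineage, read 4.13 ± 1.03 (SD, n = 4), 3.41 ± 0.600 and 3.84 ± 0.931 FPKM in control, IMQ + NS and IMQ + BZLF samples, with log2 fold changes of -0.26 (SE 0.20, adjusted p = 0.288 from limma) and -0.10 (SE 0.21, adjusted p = 0.708) from control. Melanocytes also express Sox10, and in each group it was highest in the sample with the most Dct, a melanocyte gene, at 5.595 FPKM in control replicate 2, 3.93 FPKM in IMQ + NS replicate 4 and 5.01 FPKM in IMQ + BZLF replicate 1. Dct stood at 107.2, 154.8 and 229.7 FPKM in those samples. Melanocyte markers were higher in both IMQ-treated groups, and their part in the level of Sox10 was not tested. Without control replicate 2 the fold changes of Sox10 were -0.10 and 0.05. Egr2, which drives myelin genes but is also made by immune cells and hair follicles, read 12 ± 2.54, 12.2 ± 2.31 and 11.1 ± 1.67 FPKM, with fold changes of 0.03 (SE 0.19, adjusted p = 0.890) and -0.10 (SE 0.18, adjusted p = 0.671). A missed threshold does not show that these levels were equal. Of 12 regulators and receptors tested, 3 were called higher in IMQ + NS (Erbb3, Nrg1 and Pou3f1) and 1 lower (Lgi4), with a median of 0.37. Of all genes tested in that comparison with control, 11.4% were called higher and 11% lower. The neuregulin receptor Erbb3 rose from 9.73 to 21.6 FPKM (log2 fold change 1.17, SE 0.16, adjusted p = 4.0e-04), its ligand Nrg1 was at 0.0173 FPKM in control and 0.515 FPKM in IMQ + NS samples, and Pou3f1 rose by a log2 fold change of 1.09. Lgi4, a protein that Schwann cells secrete, fell by 1.02 on that scale. The calls of Nrg1 and Lgi4 were lost with a constant of 1. In IMQ + BZLF against control 4 were called higher (Nrg1, Adgrg6, Erbb3 and Nab2) and 0 lower, beside 9.65% and 10.1% of all genes. At an adjusted p below 0.05 with no limit on the fold change, 3 were lower. The call of Erbb3 (log2 fold change 1.04) was lost with a constant of 1 (0.97), after rescaling to equal sums (0.93) or quantile normalization (0.93). It was also lost without control replicate 1 (0.90) or IMQ + BZLF replicate 1. Keratinocytes also express Erbb3 and Pou3f1. Of 9 Schwann cell and non-myelinating markers, 4 were called lower in IMQ + NS, namely Gap43, Scn7a, Cdh19 and S100b, and 1, Ngfr, was called higher. Cdh19 fell from 0.560 to 0.162 FPKM, and its call was lost with a constant of 1. Gap43, a growth cone protein also made by non-myelinating Schwann cells, fell from 6.23 to 0.888 FPKM (log2 fold change -2.71, SE 0.23, adjusted p = 3.2e-05), and Scn7a by 1.35 on the log2 scale. Ngfr, the low-affinity neurotrophin receptor, which basal keratinocytes share, rose from 1.61 to 7.59 FPKM (log2 fold change 2.18, SE 0.17, adjusted p = 2.2e-05). In IMQ + BZLF against control 2 of the 9 were called lower (Gap43 and Scn7a) and 1 higher (Ngfr).

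The calcium-binding protein gene S100b is given in full because its call in the BZLF comparison depended on the processing. It read 4.01, 2.23, 2.94 and 1.89 FPKM in control, 1.23, 1.87, 0.719 and 1.07 FPKM after IMQ + NS, and 1.75, 2.65, 2.65 and 3.50 FPKM after IMQ + BZLF. S100b fell in IMQ + NS against control (log2 fold change -1.13, SE 0.31, adjusted p = 0.0126 from limma), a call that was lost with a constant of 1 (-0.75) and without control replicate 1 or IMQ + NS replicate 3. Its difference between IMQ + BZLF and IMQ + NS, 1.08 (SE 0.28, adjusted p = 0.0525), missed the threshold and passed it after median ratio scaling (1.14) or quantile normalization (1.14), and when IMQ + NS replicate 2 (1.30) or IMQ + BZLF replicate 1 (1.26) was left out. Adipocytes also make S100b.

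Over the 3 nerve lists together, 14 of 38 genes tested were called lower and 5 higher in IMQ + NS against control, beside 11% and 11.4% of all genes, with a median log2 fold change of -0.50 against 0.05. The lists were written with earlier results of these data known, so their counts are no independent support for the 5 genes. In IMQ + BZLF against control 10 were called lower and 6 higher, beside 10.1% and 9.65%, a split of 11 lower and 3 higher when samples were rescaled to equal sums. In IMQ + BZLF against IMQ + NS 1 was called lower and 0 higher, beside 2.2% and 0.321%, or 2.52% in either direction. Without the limit on the fold change 2 were lower and 1 higher, beside 5.17% and 1.28%, and at an unadjusted p below 0.05 with that limit 1 was called in each direction. Without control replicate 2, 21 of the 38 were called in IMQ + NS and 19 in IMQ + BZLF against control, in place of 19 and 16, and with a constant of 1 these numbers were 9 and 7. In IMQ + NS against control those 9 were 5 lower and 4 higher. In IMQ + BZLF against control those 7 were 5 lower and 2 higher.

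Genes that define Schwann cells (Sox10, S100b, Egr2, Pmp2 and Cdh19) were all measured above 0 in each group, but Sox10, S100b and Egr2 have other sources in skin as well. Of the oligodendrocyte genes, which mark the myelin of the brain, Mog was at 0 FPKM in 11 of 12 samples and Mobp in 9 of 12, and Mobp was never above 0.00588 FPKM. Mog was at 0.122 FPKM in the remaining sample, IMQ + BZLF replicate 2. Aspa and Aqp4, which adipocytes and muscle respectively also express, were the 2 of 3 tested genes of that list called lower, at log2 fold changes of -2.21 and -3.16 in IMQ + NS and -1.35 and -2.52 in IMQ + BZLF against control, and 5 of the 8 genes of the list in the table were too low to test.

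Genes of repair Schwann cells, the state that follows nerve injury, were not called higher. Of 8 tested by limma, 0 passed in that direction in any of the 3 comparisons. Of all genes tested, 11.4% and 9.65% did in IMQ + NS and IMQ + BZLF against control. In IMQ + BZLF against IMQ + NS 0.321% did. With no limit on the fold change, 1 was higher in IMQ + NS against control at an adjusted p below 0.05. At an unadjusted p below 0.05 with no such limit, 1 was higher in IMQ + NS and 0 in IMQ + BZLF against control, and 1 in IMQ + BZLF against IMQ + NS. In IMQ + NS against control 2 were called lower, among them Sox2 (-1.43), and in IMQ + BZLF against control 3, among them Lif (-1.52) and Gdnf (-1.15), all with a control mean of 1.12 FPKM or less. Sox2 read 1.56 FPKM in control replicate 2, the control that stood apart, and 0.259 to 0.324 FPKM in the other controls. Most axon genes are made in cell bodies outside the skin, and only 6 of the 10 axon and sensory neuron genes in the table could be tested. Stmn2 (from 5.09 to 1.73 FPKM) and Uchl1 were called lower and Tubb3 higher in IMQ + NS, and Tubb3 higher in IMQ + BZLF. Tubb3, which melanocytes also make, was at 0.147 to 0.619 FPKM in 3 controls, at 8.30 FPKM in control replicate 2 and at 18.3 to 28.4 FPKM in the 8 IMQ-treated samples.

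Markers of other skin cells moved with the groups as well. Of all genes tested, 11% and 10.1% were called lower and 11.4% and 9.65% higher in IMQ + NS and IMQ + BZLF against control. All 8 skeletal muscle markers were called lower in both IMQ-treated groups, with sums of 4024 to 9946 FPKM in control, 762 to 1826 FPKM after IMQ + NS and 1340 to 1718 FPKM after IMQ + BZLF. Muscle is itself rich in nerve. Its markers had a median of -2.90 after IMQ + NS, against -1.24 for the 5 myelin genes. Adipocyte and fibroblast markers lay closer to the 5 genes, with medians of -1.498 and -1.542 after IMQ + NS. After IMQ + BZLF these were -1.308 and -1.169, against -1.107 for the 5 genes. Endothelial, macrophage and T cell markers had higher medians after IMQ + NS, at -0.5735, -0.5441 and -0.2138. Those of keratinocyte and melanocyte markers were 1.461 and 2.728. Adipocyte markers were called lower for 7 of 8 in IMQ + NS and 5 of 8 in IMQ + BZLF, with sums of 2597 to 6457, 1014 to 1742 and 1359 to 1741 FPKM in the 3 groups. Fibroblast markers were called lower for 5 of 8 in both, with sums of 13150 to 18680, 3726 to 4932 and 4314 to 8151 FPKM. Keratinocyte markers went the other way, with 7 of 8 called higher in IMQ + NS and 3 of 8 in IMQ + BZLF, and sums of 2490 to 3540, 5964 to 8888 and 3315 to 4768 FPKM. Of 8 melanocyte markers, 5 were called higher in both, with sums of 48.5 to 267, 212 to 404 and 287 to 588 FPKM. Endothelial (1 and 2 of 8 lower), macrophage (1 and 3 of 8 lower) and T cell markers (0 and 3 of 7 lower) had fewer calls. Without the limit on the fold change, 6 and 8 of 8 endothelial, 7 and 8 of 8 macrophage and 1 and 4 of 7 T cell markers were lower in IMQ + NS and IMQ + BZLF against control. By that rule 4142 and 4458 of all 15288 genes tested were lower. None of the muscle, adipocyte, fibroblast, melanocyte, endothelial or T cell markers was called between IMQ + BZLF and IMQ + NS by limma, although 3 of 8 muscle, 3 of 8 adipocyte, 3 of 8 fibroblast and 1 of 8 melanocyte markers were higher, 1 of 8 endothelial markers higher and 2 lower, and 3 of 7 T cell markers lower at an unadjusted p below 0.05. In that comparison 1 keratinocyte marker (Krt14) and 1 macrophage marker (Adgre1) were called lower, beside 2.2% of all genes. At an unadjusted p below 0.05, 6 of 8 keratinocyte and 3 of 8 macrophage markers were lower. The share of all genes at an unadjusted p below 0.05 is not given here. Of the keratinocyte markers 4 were lower at an adjusted p below 0.05 with no limit on the fold change, and 5 without overlap, beside 5.17% and 10.9% of all genes. The part of the cell makeup of the samples in the levels of Mbp, Prx, Mag, Cnp and Pmp22 was not tested.

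**Figure D4:**
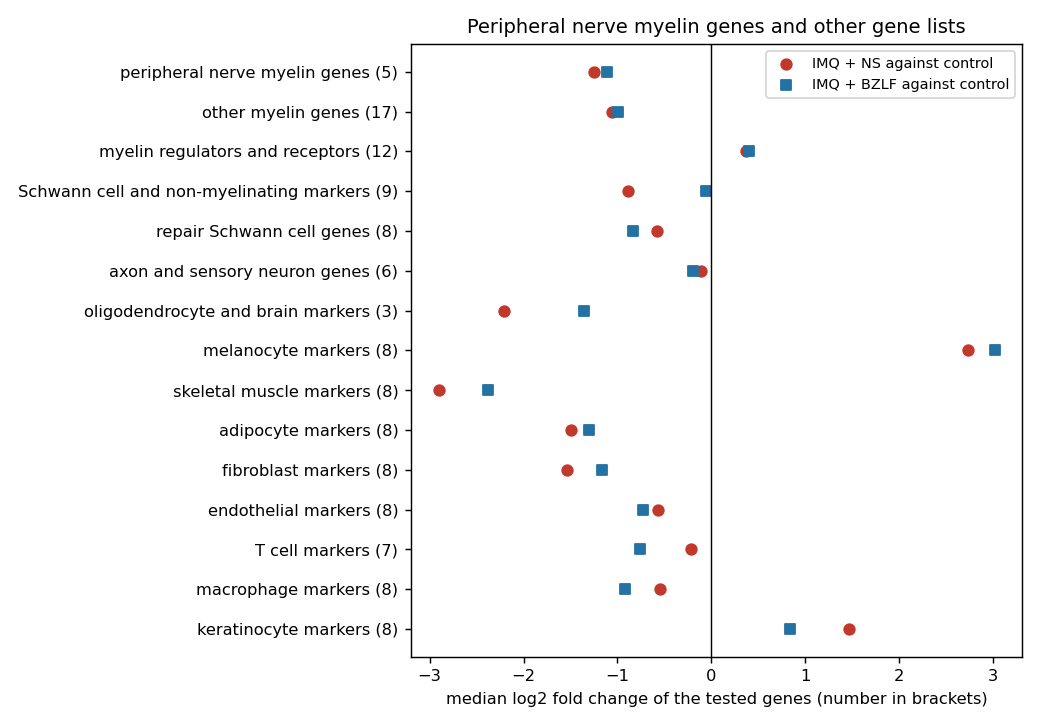
Median log2 fold change from control (horizontal axis) of the tested genes of each list, with their number in brackets, in the IMQ + NS and IMQ + BZLF groups. The peripheral nerve myelin genes lie at -1.24 and -1.11, between the muscle markers at -2.90 and -2.38 and the keratinocyte markers at 1.46 and 0.84.

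The 6 genes most like the 5 were sought among 12653 other genes with a mean of at least 1 FPKM, by the Pearson correlation over the 12 samples between log2(FPKM + 0.1) and the mean of the 5 genes after each was centred and scaled. Among them were Cdon (0.996), H2-DMb1 (0.989), Dpysl2 (0.988), Pid1 (0.988) and Hsf2 (0.985). These values are a description, since all 12 samples share the gap between control and IMQ-treated skin. With the group means removed they were 0.963, 0.900, 0.931, 0.876 and 0.862 in the same order. Cdon, a cell surface co-receptor of hedgehog signaling, read 3.64, 2.99, 4.11 and 3.44 FPKM in control, 1.68, 1.36, 1.37 and 1.35 FPKM after IMQ + NS, and 1.18, 1.62, 1.62 and 2.06 FPKM after IMQ + BZLF. It was at its highest in control replicate 3 and at its lowest in IMQ + BZLF replicate 1, as Mbp was. In IMQ + NS against control the log2 fold changes ranged from -1.86 for H2-DMb1, which takes part in antigen loading, through -1.36 for Dpysl2 and -1.19 for Pid1 to -0.98 for Hsf2. Of the 5 genes, Mbp followed the mean of the other members most closely once group means were removed (0.938) and Prx least (0.423).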

How the data were processed

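RNA-seq of 12 back skin samples was analysed. The authors deposited FPKM values, 1 per gene and sample, not pooled over replicates. The study describes alignment with Bowtie2 and FPKM from eXpress, whereas the submitters' processing notes list fastp, HISAT2, HTSeq, R 3.2.0 and mm10, and the 2 accounts also name different extraction and library kits. Each of 24580 low values was divided by the lowest one of the same gene, and 24.6% came out whole to within 0.05, so counts were not rebuilt.

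Genes with a mean of at least 0.1 FPKM, 15288 of 18505, were tested on log2(FPKM + 0.1) by limma 3.58.1 in R 4.3.3 with a variance trend, for each pair of groups of 4, with Benjamini-Hochberg adjustment. Calls needed a log2 fold change beyond 1 in either direction at an adjusted p under 0.05. The constant understates fold changes of low genes. Python 3.11.15, pandas 2.3.3 and matplotlib 3.10.9 were used for the rest. Standard errors of the 5 genes are those of a difference of 2 means. Named from the lists were the genes with the largest fold change among those called at a mean of at least 1 FPKM (up to 4), defining nerve genes, members of counts of 5 or fewer, and the 6 genes most like the 5. Ugt8a, Cldn19, Ncmap, Dusp15, Cdh19, Sh3tc2, Mog and Mobp were named after their values were seen. Some genes that these rules would name are left out of the text. The 5 genes and the lists were chosen with earlier results of these data known. The alternatives were constants of 0.01 and 1, other filters, scalings and variance models, a replicate block, other call rules and leaving out each sample.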

Additional observations from a re-analysis of the deposited data

Results flagged for a closer look

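In 4 of 54 groups of 4 samples, 1 sample lay far from the others, with a gap to its nearest neighbour that took more of the range of the group than Dixon's 95% limit allows. Chance alone sets apart about 1 in 20 groups. Cnp was at 9.41 FPKM in IMQ + NS replicate 3, against 8.17 to 8.37 FPKM in the others. Pmp22 was at 44.4 FPKM in IMQ + BZLF replicate 1, against 60.5 to 61.8 FPKM in the others. Pid1 was at 6.13 FPKM in the same sample, against 9.28 to 9.77 FPKM. Cdon was at 1.68 FPKM in IMQ + NS replicate 1, against 1.35 to 1.37 FPKM.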

How the results depend on the processing

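The log2 differences of Mbp, Prx, Cnp and Pmp22 from control kept their direction and moved by less than 1 SD under every alternative run, and that of Mag moved with a constant of 1, to -0.44 after IMQ + NS and -0.49 after IMQ + BZLF. No call of a named gene was reversed. The numbers of genes called in IMQ + NS against control, IMQ + BZLF against IMQ + NS and IMQ + BZLF against control were 3418, 385 and 3017, and became 8569, 986 and 8098 with no limit on the fold change and 2191, 205 and 1844 with a constant of 1. Leaving out 1 sample gave 3090 to 4067, 252 (without IMQ + NS replicate 3) to 405, and 2581 to 3750. Of the 38 other nerve genes, 19, 1 and 16 were called, which became 30, 3 and 27 with no limit on the fold change, 9, 0 and 7 with a constant of 1, and 16 to 21, 0 to 2 and 12 to 19 when 1 sample was left out. The count in IMQ + BZLF against IMQ + NS was 0 at a mean FPKM of at least 1, in a fit of all 12 samples, and without IMQ + NS replicate 4 or IMQ + BZLF replicate 3, and 2 at an unadjusted p, after median ratio scaling or quantile normalization, and without IMQ + BZLF replicate 1. The cause was not tested. Rescaling to equal sums moved the median of all genes in IMQ + NS against control from 0.05 to -0.07. Whether the replicate numbers pair the samples was not settled. Deviations of samples with the same number correlated from -0.15 to 0.26, and 2, 3 and 2 of 4 samples correlated best with their own number. With the number as a replicate block 3414, 382 and 2984 genes and 18, 1 and 16 nerve genes were called. Read counts per gene were not used here, so the counting error of low values such as those of Mag is not given.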
